A study of Homo sapiens with 2 samples.

Results

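The expressed LINC RNAs were the 113 genes whose symbol is LINC followed only by digits, selected on their measured level: at least 0.5 FPKM (fragments per kilobase of transcript, scaled to the library's mapped fragments) in either of 2 libraries. They were 113 of 613 such rows in a table of 30856 gene rows. Another 498 LINC rows were below that level, 121 of them with 0 counts in both libraries, and 2 rows from the first part of chromosome 4 were left out. Both libraries came from THP-1, an established line of human acute myeloid leukaemia cells with monocytic features. One was made from untreated parental cells, and the other from cells grown in cytarabine (Ara-C), a nucleoside analogue used against leukaemia, whose concentration was raised stepwise from 5 nM to 10 µM until the cells doubled as fast as the untreated ones. The labels do not say whether the resistant cells are a single clone or a pool, or whether the drug was present at harvest. Both libraries are poly(A)-selected RNA, with 57434972 counts in parental and 58285463 counts in resistant cells. With 1 library per group there was no test between conditions: every difference below is between 2 libraries, and the intervals cover counting error only, with read pairs taken as independent molecules.

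LINC symbols are given to long intergenic noncoding RNAs that have no better name. Such RNAs are transcribed by RNA polymerase II, are often spliced and polyadenylated like messenger RNAs, and carry no long open reading frame. Most have no known function. Some act on a neighbouring gene through their transcription, some act in trans as scaffolds, and many mark an active enhancer or promoter. They are known for low levels and for a narrower range of cell types than messenger RNAs.

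The cells carried the markers of their label. SPI1 and CEBPA, transcription factors of the myeloid lineage, stood at 62.3 and 141 FPKM in resistant cells, beside 64.4 and 139 FPKM in parental ones, and the neutrophil elastase gene ELANE at 448 and 359 FPKM. Of the 13 marker genes of the monocytic line, 13 were above 0.5 FPKM, and LYZ (95.8 against 225 FPKM) and MPO (0.94 against 2.81 FPKM) were at least 2-fold lower in resistant cells. CTSG, a granule protease gene of the same list, was 1.97-fold higher (306 against 155 FPKM). Of the markers of T and natural killer cells, megakaryocytes, epithelial cells and fibroblasts, none of the genes analysed reached 0.5 FPKM in either library; erythroid markers were not analysed here. In bulk RNA, fewer cells with a transcript and less of it per cell cannot be told apart.

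Promoter windows are printed for 2 of the most abundant members, 2 that were higher in resistant cells and 2 that were lower, in that order, to show how unlike the starts of these genes are. They are RefSeq windows of GRCh38.p14, of 300 bases each, for LINC02169 (chr16:54270830-54271129, minus strand), LINC01388 (chr9:113746-114045, minus strand), LINC01719 (chr1:146052346-146052645, plus strand), LINC01451 (chr9:136617132-136617431, minus strand), LINC00987 (chr12:9239823-9240122, plus strand) and LINC02132 (chr16:85936125-85936424, minus strand). Each is written 5′ to 3′ along the RNA, and capitals mark the last 50 bases, which RefSeq places from the start of the gene onwards.
LINC02169: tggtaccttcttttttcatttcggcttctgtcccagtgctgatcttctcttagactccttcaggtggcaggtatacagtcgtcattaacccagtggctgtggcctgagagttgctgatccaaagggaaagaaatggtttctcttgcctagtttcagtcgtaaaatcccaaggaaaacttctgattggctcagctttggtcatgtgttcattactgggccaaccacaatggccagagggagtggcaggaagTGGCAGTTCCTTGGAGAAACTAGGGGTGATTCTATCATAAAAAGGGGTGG
LINC01388: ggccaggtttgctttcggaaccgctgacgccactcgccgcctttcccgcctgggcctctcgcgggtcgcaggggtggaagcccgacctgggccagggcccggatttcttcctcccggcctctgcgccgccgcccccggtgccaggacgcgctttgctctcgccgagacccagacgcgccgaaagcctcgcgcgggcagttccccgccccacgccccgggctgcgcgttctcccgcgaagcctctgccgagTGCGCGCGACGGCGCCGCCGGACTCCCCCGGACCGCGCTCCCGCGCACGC
LINC01719: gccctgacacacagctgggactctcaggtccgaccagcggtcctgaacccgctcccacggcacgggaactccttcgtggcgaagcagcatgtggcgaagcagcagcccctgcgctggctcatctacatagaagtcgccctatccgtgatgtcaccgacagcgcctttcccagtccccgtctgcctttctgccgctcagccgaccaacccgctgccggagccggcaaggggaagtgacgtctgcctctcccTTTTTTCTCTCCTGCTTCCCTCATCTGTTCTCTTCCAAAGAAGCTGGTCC
LINC01451: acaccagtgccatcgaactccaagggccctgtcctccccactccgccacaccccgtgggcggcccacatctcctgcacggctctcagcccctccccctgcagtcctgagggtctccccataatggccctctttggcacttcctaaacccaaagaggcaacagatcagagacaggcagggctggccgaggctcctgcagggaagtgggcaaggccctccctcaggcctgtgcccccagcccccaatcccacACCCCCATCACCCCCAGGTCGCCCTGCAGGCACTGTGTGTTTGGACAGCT
LINC00987: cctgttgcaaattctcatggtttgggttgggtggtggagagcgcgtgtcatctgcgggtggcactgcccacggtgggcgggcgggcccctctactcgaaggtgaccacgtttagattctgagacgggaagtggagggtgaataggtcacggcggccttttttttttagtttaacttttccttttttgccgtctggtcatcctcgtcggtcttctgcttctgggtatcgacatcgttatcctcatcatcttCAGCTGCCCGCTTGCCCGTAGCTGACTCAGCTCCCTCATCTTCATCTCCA
LINC02132: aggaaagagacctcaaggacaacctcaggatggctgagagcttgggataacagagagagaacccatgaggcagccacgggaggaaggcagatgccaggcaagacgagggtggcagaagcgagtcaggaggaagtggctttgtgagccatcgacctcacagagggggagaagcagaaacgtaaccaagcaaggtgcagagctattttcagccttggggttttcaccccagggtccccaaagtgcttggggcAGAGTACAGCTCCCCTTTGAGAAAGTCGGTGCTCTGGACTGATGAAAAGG

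The windows differ in base composition: LINC01388 holds 47 CG dinucleotides, LINC01719 20 and LINC00987 18, whereas LINC01451 holds 7, LINC02132 6 and LINC02169 3. RefSeq gave a window for 75 of the 113 members, with a median of 14 CG dinucleotides, the same as the median over all 35116 windows. In the 7 windows of members at least 2-fold higher in resistant cells the number ran from 4 to 34 (median 25), and in the 6 windows of members at least 2-fold lower it ran from 3 to 27 (median 6), so the ranges overlapped. The AP-1 motif TGACTCA, read on both strands, was in 4 of the 75 windows (5.33%, against 4.95% of all windows), among them the capitals of LINC00987. The letters TATAAA were in 9 of the 75 (12%, against 11.5%). The motif of PU.1, the protein encoded by SPI1, written as GAGGAAGT, was in 4 (5.33%, against 2.59%), among them LINC02132. The ETS motif CCGGAAGT was in 4 (5.33%, against 4.14%). The C/EBP motif was in 0 of the 75 (0.0%, against a rounded 0.0% of all windows), so its absence does not set the members apart. The motif counts are matches of letters, not sites, and the RefSeq start lay within 100 bases of the deposited start for 39 of the 75.

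Most of the members were rare RNAs. The level that chose them is a description: the median over members was 0.86 FPKM in the resistant library and 0.87 FPKM in the parental one, 58 of the 113 stayed below 1 FPKM in both libraries, and 6 reached 5 FPKM in either. Together they held 0.0811% of the counts of the resistant and 0.0828% of the counts of the parental library. Across the 113 genes, which are not independent replicates, Pearson's r of log2(FPKM + 0.1) between the libraries was 0.844. At the edge of the rule, LINC01176 (0.50 and 0.47 FPKM in resistant and parental cells) was just inside, and LINC01230 (0.10 and 0.49 FPKM) and LINC01961 (0.22 and 0.49 FPKM) were just outside.

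**Figure D1:**
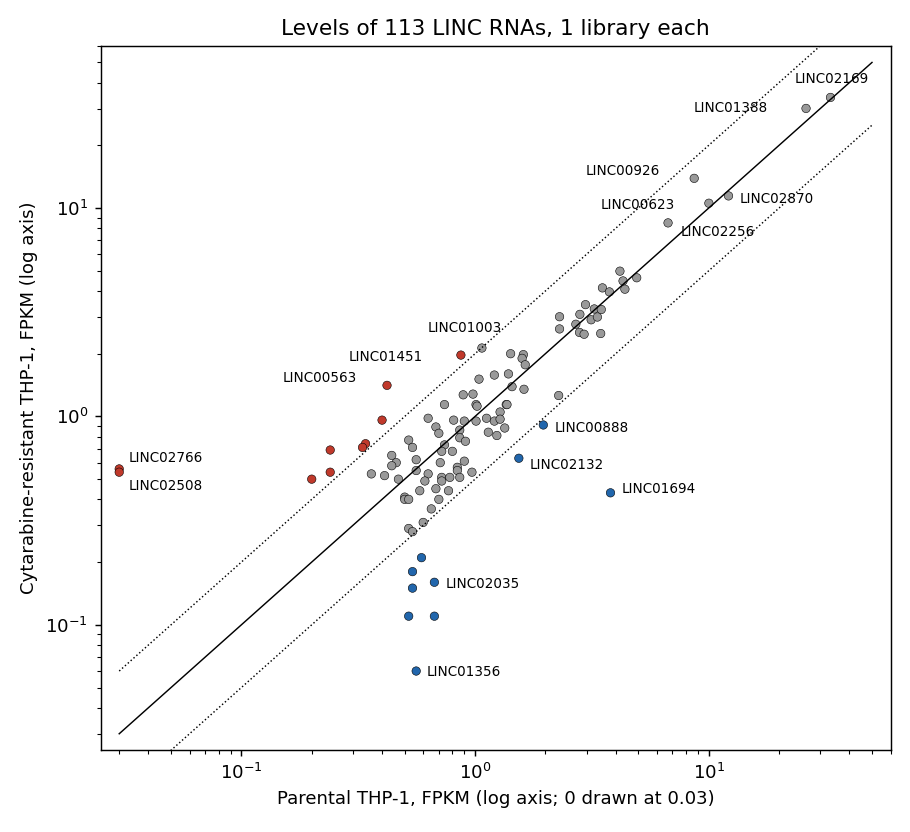
FPKM of each of the 113 LINC RNAs in parental (horizontal) and resistant cells (vertical), both on log axes. The solid line marks equal FPKM, the dotted lines 2-fold, red and blue points are at least 2-fold higher and lower in resistant cells by counts, and the most abundant members lie between the dotted lines.

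The most abundant members were near equal in the 2 libraries. LINC02169 stood at 33.96 FPKM in the resistant library and 33.2 FPKM in the parental one, on 1968 and 1892 counts (1.02-fold, 95% counting interval 0.962 to 1.09). It lies on chromosome 16 from 54245544 to 54270879 (GRCh38), 12.4 kb from IRX3, a homeobox gene on the same strand, which was also abundant (39.5 and 35.9 FPKM). LINC01388, at 30.1 and 26.1 FPKM, lies 2.48 kb from the forkhead gene FOXD4 near an end of chromosome 9, and FOXD4 was at 7.95 and 4.80 FPKM. LINC02870 was at 11.4 and 12.2 FPKM (0.943-fold, 0.880 to 1.01), and LINC00623 at 10.6 and 10.02 FPKM (1.06-fold, 0.989 to 1.13). LINC02256 stood somewhat higher in resistant cells, at 8.49 against 6.70 FPKM (1.27-fold, 1.11 to 1.45). Near-identical copies in other genes covered 100% of the longest transcript of LINC00623, 56.5% of that of LINC02256 and, among members named further on, 28.7% for LINC00342 and 55.9% for LINC00869, so their reads could be shared with those genes. Of the 10 members with the highest mean level, LINC00926 alone was more than 1.5-fold apart.

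LINC00926, an RNA known from B cells, was at 13.9 FPKM in the resistant and 8.67 FPKM in the parental library. Its 3459 and 2122 counts made it 1.61-fold higher (1.52 to 1.70), the narrowest interval among the members with the highest ratios. The B cell marker CD79A, a part of the B cell receptor, was low beside it, at 0.18 and 0.21 FPKM. LINC00861, known from T cells, had 4 counts in resistant and 0 in parental cells, which allows up to 3 counts, and LINC01871 had 0 in both. LINC00926 lies 9.24 kb from TCF12, which encodes a basic helix-loop-helix transcription factor and was at 17.3 against 13.2 FPKM.

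Other members of the top 10 by level were LINC00106, LINC01578, LINC00342 and LINC00641. LINC01578, now named CHASERR, is known to restrain the chromatin remodeller gene CHD2 that lies 1.45 kb from it. CHASERR stood at 4.63 FPKM in resistant cells against 4.92 FPKM in parental ones (0.943-fold, 0.884 to 1.01), and CHD2 at 5.79 and 5.66 FPKM. LINC00641, beside the splicing regulator gene HNRNPC, was at 4.08 and 4.38 FPKM, and LINC00342 at 4.47 and 4.30 FPKM. LINC00106, from the part of chromosome X that pairs with Y, was at 4.98 and 4.17 FPKM (1.20-fold, 0.972 to 1.48), an interval that holds equal levels. Among members of at least 2 FPKM, LINC01436 (3.28 and 3.24 FPKM), 20.6 kb from the blood transcription factor gene RUNX1, was nearest to equal, followed by LINC02169, LINC00869 (2.77 and 2.70 FPKM), LINC00342 and LINC00205 (3.96 and 3.76 FPKM).

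Over the 113 members, the ratio of counts relative to the library total (resistant over parental) was above 1 for 53 and below 1 for 60, with a median log2 ratio of -0.07 beside -0.02 over 12968 genes with a symbol at the same level. A size rule of 2-fold was passed by 10 members that were higher (8.85%) and 10 that were lower (8.85%) in resistant cells. Over all 12968 genes 3.19% were higher and 5.32% lower by this rule. Unlike the members, the sets behind these and later rates kept the first part of chromosome 4. Rates without it were not computed. With its LINC genes kept as members, 10 of 115 were higher and 11 lower. The rate depends on level: of 3347 genes whose highest FPKM lay from 0.5 to 2, 8.72% were higher and 14.5% lower. The 85 members in that range held 10 higher (11.8%) and 9 lower (10.6%) ones. In either direction their share was 22.4%, beside 23.2% of those 3347 genes. Of the 28 members at 2 FPKM or more, 0 were higher and 1 was lower, where the rates over 9621 genes were 1.27% and 2.14%. The rule on level also took part: 9 of the 10 higher members reached 0.5 FPKM in resistant cells only and 8 of the 10 lower ones in parental cells only, so that their difference came with their choice. Of the 77 members at 0.5 FPKM in both libraries, 1 was higher and 2 were lower. The rate over all genes filtered in this way was not computed, so these counts have no rate beside them.

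**Figure D2:**
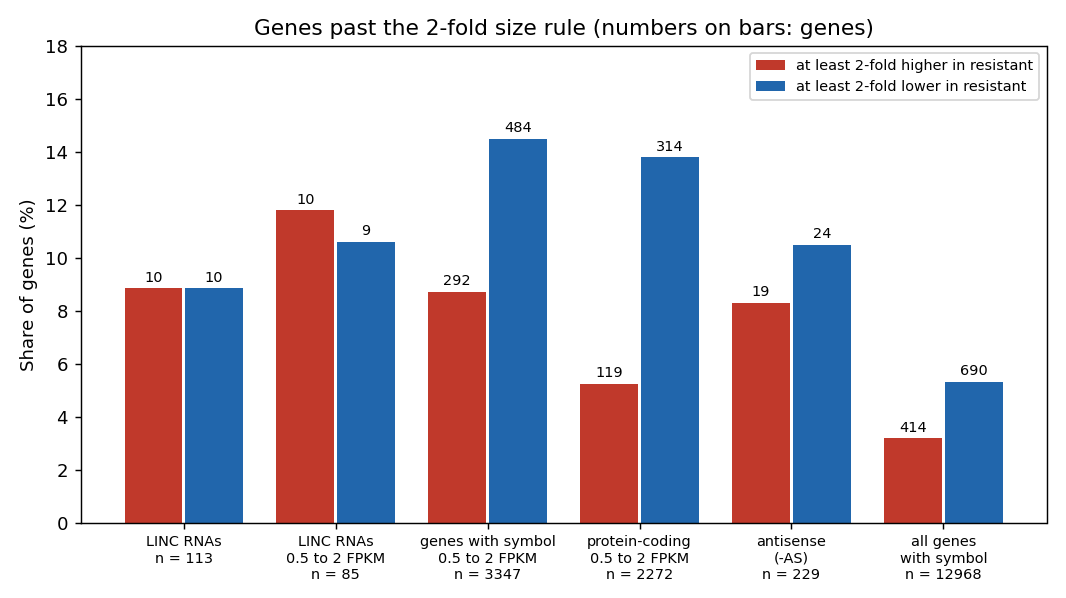
Share of genes at least 2-fold higher (red) or lower (blue) in resistant cells, in percent, with the number of genes on each bar. LINC RNAs pass the rule more often than all genes with a symbol. Within 0.5 to 2 FPKM, 11.8% of 85 members are higher, against 8.72% of genes with a symbol, and 10.6% are lower, against 14.5%.

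Among other noncoding classes, antisense and divergent genes gave shares near those of the members (8.85% higher and 8.85% lower). The classes follow the deposited symbols. Some members now carry names of these classes, such as LINC01771 (LRP8-DT) and LINC00909 (ZNF407-AS1). Of 229 antisense genes (symbols ending in -AS), 19 were at least 2-fold higher (8.3%) and 24 lower (10.5%), with a median log2 ratio of 0.02. Of 27 divergent transcripts (-DT), 3 were higher (11.1%) and 2 lower (7.41%). Of 12 microRNA host genes (MIR symbols ending in HG) 3 were higher and 0 lower, and of 11 intronic or overlapping transcripts (-IT, -OT) 2 were higher and 0 lower. The small nucleolar RNA host genes (SNHG), a more abundant class, had 0 of 23 past the rule in either direction. Protein-coding genes of 0.5 to 2 FPKM leaned to lower levels in resistant cells, with 119 higher and 314 lower among 2272. From a list of well studied long noncoding RNAs, which includes CHASERR, 21 of 33 measured were at 0.5 FPKM, of which 1 was at least 2-fold higher and 3 lower. MIR223HG, the host of a myeloid microRNA, was at 7.81 against 3.43 FPKM (2.28-fold, 2.11 to 2.46). HOTAIRM1, a myeloid RNA of the HOXA cluster, was at 0.69 against 1.40 FPKM, DANCR at 1.75 against 4.06 FPKM, and RN7SK, a small nuclear RNA without a poly(A) tail, at 0.92 against 6.26 FPKM. MALAT1, a nuclear speckle RNA, was at 32.9 and 27.7 FPKM, and NORAD, a sponge for Pumilio proteins, at 39.3 and 37.7 FPKM.

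LINC01694 stood apart as the member that was both well covered and far lower in resistant cells. It lies on chromosome 21 from 45593654 to 45603088 and stood at 3.80 FPKM in parental against 0.43 FPKM in resistant cells. Its 210 and 1804 counts made it 8.72-fold lower (7.55 to 10.1). It was the single member of at least 2 FPKM past the 2-fold rule. The genes around it did not share this difference: SLC19A1, the reduced folate carrier 20.3 kb away on the other strand, was at 6.44 and 5.81 FPKM, and the 15 nearest expressed protein-coding genes had a median log2 ratio of -0.10. Another member on the same arm, LINC00205, which starts head to head with the fucosyltransferase gene POFUT2, was near equal at 3.96 and 3.76 FPKM. Of the 9 members on chromosome 21, 4 had a log2 ratio above 0 and 5 below.

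LINC01356 had nearly the same ratio at much lower depth, with 14 counts in resistant and 119 in parental cells (8.63-fold lower, 4.94 to 16.3). It lies on chromosome 1 from 112820170 to 112849815, at 0.06 and 0.56 FPKM. Its nearest expressed coding gene, the lactate transporter gene SLC16A1 62.03 kb away, was at 43.1 and 45.2 FPKM. LINC02035 was at 0.16 against 0.67 FPKM from 60 and 245 counts (4.14-fold lower, 3.11 to 5.59). LINC01881 was at 0.11 against 0.52 FPKM on 16 and 69 counts (4.38-fold lower, 2.51 to 8.08). LINC01127 was at 0.21 against 0.59 FPKM on 55 and 154 counts (2.84-fold lower, 2.08 to 3.94), 67.4 kb from the kinase gene MAP4K4 (13.6 and 14.2 FPKM). For these 4 and LINC01694, 5 members in all, the whole interval lay past 2-fold, as it did for 3.1% of all genes with a symbol and 7.74% of those from 0.5 to 2 FPKM. LINC01881 comes from a duplicated region: at least 97% identity with 7 other genes covered 91.6% of its longest transcript, so reads could be shared among the copies.

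The other lower members had intervals that reached inside 2-fold. LINC01560 was at 0.15 against 0.54 FPKM on 13 and 47 counts (3.67-fold lower, 1.95 to 7.39), and LINC00987 at 0.18 against 0.54 FPKM (2.90-fold, 1.94 to 4.41). LINC02132, on chromosome 16 from 85935281 to 85936223, was at 0.63 against 1.54 FPKM (2.47-fold lower, 1.62 to 3.86). It lies 12.7 kb from IRF8, a transcription factor gene of monocytes and dendritic cells, which was at 151 and 177 FPKM. LINC00888 was at 0.91 against 1.96 FPKM (2.14-fold lower, 1.74 to 2.66). LINC02799, which completes the 10 and was named after its values were seen, was at 0.11 against 0.67 FPKM on 4 and 19 counts (4.82-fold lower, 1.602 to 19.5) and has near-identical copies along its whole longest transcript. Just short of the rule were LINC01224, beside the retrotransposon repressor gene ZNF91, at 0.28 against 0.54 FPKM (1.89-fold lower, 1.42 to 2.52), LINC02700 at 1.26 against 2.28 FPKM (1.80-fold lower, 1.54 to 2.10) and LINC01684 at 0.29 against 0.52 FPKM (1.76-fold lower, 1.47 to 2.11).

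Among the higher members, LINC00563 had the highest ratio of those with at least 50 counts. It lies on chromosome 13 from 46296445 to 46297844, has a single exon, and stood at 1.41 FPKM in resistant against 0.42 FPKM in parental cells. Its 134 and 39 counts made it 3.39-fold higher (2.35 to 4.97). A gene known by a clone name overlaps it on the other strand. RUBCNL, an autophagy gene 36.8 kb away, was at 3.55 against 4.66 FPKM.

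LINC02766 on chromosome 1 and LINC02508 on chromosome 4 had 0 counts in parental cells and 17 and 16 counts in resistant cells. Against a floor of 3 counts set for the parental library they were 5.58-fold and 5.26-fold higher, and the counting intervals began lower, at 4.07 and 3.80. At 0.56 and 0.54 FPKM both stood just above the level that chose the members. LINC02766 lies 15.7 kb from VPS13D, a lipid transfer protein gene, which was at 2.77 and 2.87 FPKM. With LINC00563, these were the 3 members whose whole interval was above 2-fold, as it was for 1.36% of all genes with a symbol and 3.2% of those from 0.5 to 2 FPKM.

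LINC01451, on chromosome 9 from 136612024 to 136617181, was the one higher member at 0.5 FPKM in both libraries. It stood at 1.97 against 0.87 FPKM from 456 and 199 counts (2.26-fold higher, 1.91 to 2.68). Its nearest expressed protein-coding gene, EGFL7, a secreted protein gene 41.7 kb away, went the other way, at 5.11 against 8.91 FPKM (1.74-fold lower, 1.60 to 1.89). LINC01719 was at 0.96 against 0.40 FPKM (2.43-fold higher, 1.96 to 3.02), and 69.2% of its longest transcript matched 3 other genes at 97% identity or more. LINC01686 was at 0.54 against 0.24 FPKM on 51 and 22 counts (2.28-fold, 1.36 to 3.96), and LINC01667 at 0.74 against 0.34 FPKM (2.14-fold, 1.68 to 2.76). LINC02166, which overlaps the kinase gene CDK10 on the other strand, was at 0.50 against 0.20 FPKM on 25 and 10 counts (2.46-fold, 1.14 to 5.75). LINC00685 was at 0.71 against 0.33 FPKM on 21 and 10 counts (2.07-fold, 0.933 to 4.92), an interval that holds equal levels. These 2 complete the 10 and were named after their values were seen.

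LINC00921 shares its place with a coding gene. It was at 0.69 against 0.24 FPKM on 116 and 40 counts (2.86-fold higher, 1.98 to 4.20), and overlaps ZNF263, a zinc finger gene, on the same strand. Summed over both, the counts were 3622 in resistant and 3676 in parental cells, a log2 ratio of -0.04. ZNF263 held 3506 and 3636 of them, so the sum mostly gives the ratio of ZNF263 and says little about LINC00921. How the authors divided reads between overlapping genes is not given in the sources used here.

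LINC01003 lay at the edge of the rule, at 2.13 against 1.07 FPKM on 256 and 127 counts (1.99-fold higher, 1.60 to 2.48). It lies 27.8 kb from KMT2C, a histone methyltransferase gene, which was at 5.56 and 5.89 FPKM. The rest of the highest ratios were near 1.5-fold. LINC00235 was at 0.98 against 0.63 FPKM (1.56-fold, 1.20 to 2.03) and LINC00900 at 1.14 against 0.74 FPKM (1.55-fold, 1.33 to 1.82). LINC01278 was at 0.65 against 0.44 FPKM (1.49-fold, 1.32 to 1.69) and LINC00997 at 1.51 against 1.04 FPKM (1.46-fold, 1.20 to 1.77). LINC01278 overlaps SPIN4 on the same strand. The locus as a whole had a log2 ratio of 0.43 on 3010 and 2209 counts, of which SPIN4 held 2373 and 1790.

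**Figure D3:**
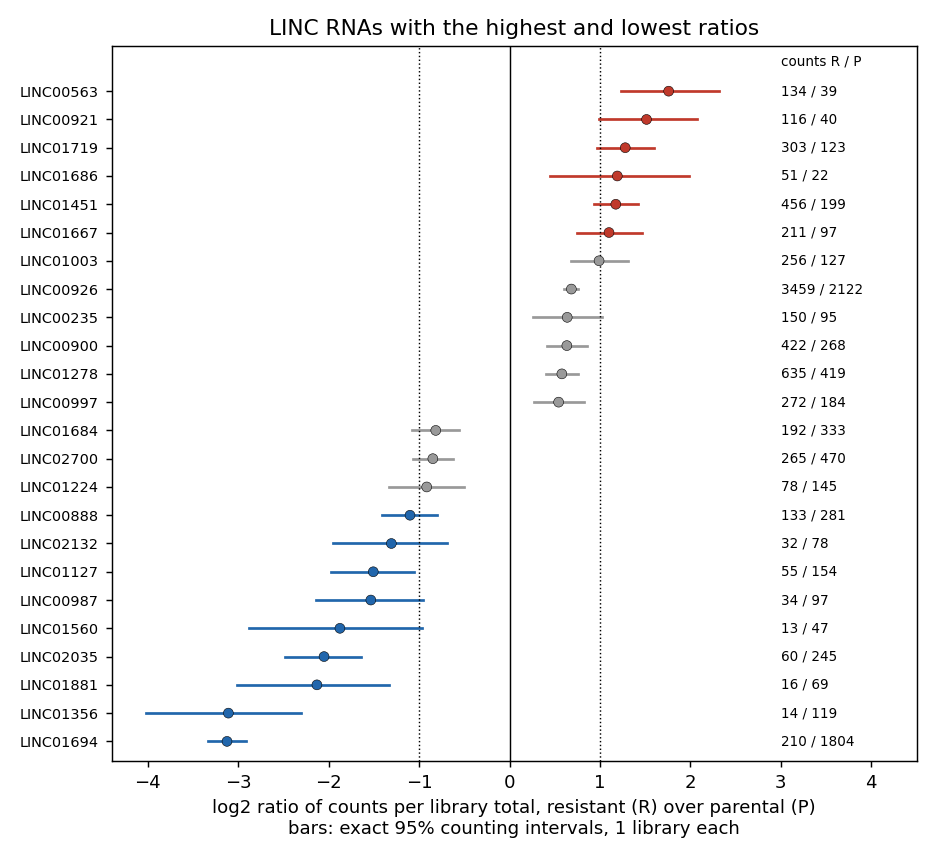
log2 ratio of counts per library total (resistant over parental) for the 12 highest and 12 lowest members with at least 50 counts, with exact 95% counting intervals and the counts of each library. Dotted lines mark 2-fold; LINC01694 has a narrow interval around -3.12, and LINC01356, with 14 and 119 counts, a wide one around -3.11.

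Across all 113 members, 65 had an interval without equal levels, of which 29 were higher and 36 lower. It did so for 70.9% of all genes with a symbol and for 61.3% of those from 0.5 to 2 FPKM, so the members' share, below the first of these, lay near the second. The sum of both libraries' counts had a median of 441 per member, and 9 members had fewer than 50. Of the members, 76 were less than 1.5-fold apart, a count for which no rate over all genes was computed. The quartiles of the members' log2 ratios were -0.46 and 0.32, wider apart than -0.25 and 0.18 over all genes with a symbol. Over genes from 0.5 to 2 FPKM the quartiles were -0.56 and 0.33.

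The nearest expressed protein-coding gene of a LINC RNA showed little relation to it. Across the 113 members, Pearson's r between the log2 ratio of the member and that of its nearest protein-coding gene of at least 1 FPKM was 0.097 (Spearman's rho 0.111), and 0.098 over the 79 pairs no more than 50 kb apart. These are descriptions over genes of the same pair of libraries, some of which share a neighbourhood. The signs were equal in 63 of 113 pairs. Of the 20 members past the 2-fold rule, 2 had a neighbour past it, both in the same direction. Over all 113 members 6 neighbours were past it, and 4.47% of the 10289 protein-coding genes of at least 1 FPKM were, so 2 of 20 is too small a count to set apart from that rate. One pair was LINC01686 and RGS16, a regulator of G protein signalling 10.9 kb away, at 6.0 against 2.70 FPKM (2.23-fold higher, 1.99 to 2.50). The other was LINC02035 and SLC49A4, a membrane transporter gene 5.80 kb away, at 0.47 against 1.06 FPKM (2.23-fold lower, 1.77 to 2.83). SLC49A4 reached the 1 FPKM asked of a neighbour in parental cells only, so its level rule also took part in this pair.

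The reverse also occurred, with a neighbour past the rule and a member inside it. LINC01624, LINC00899, LINC02637 and their neighbours were picked after their values were seen. DLL1, a Notch ligand gene 2.32 kb from LINC01624, was at 0.76 against 2.11 FPKM, while LINC01624 was at 2.00 against 1.42 FPKM. WNT7B, a Wnt ligand gene 62.7 kb from LINC00899, was at 1.10 against 3.89 FPKM, while LINC00899 was at 1.14 and 1.01 FPKM. CADM1, an adhesion molecule gene 249 kb from LINC00900, was at 1.06 against 0.45 FPKM, and LINC00900 at 1.14 against 0.74 FPKM. DLL1 reached the neighbour level of 1 FPKM in parental cells only, and CADM1 in resistant cells only. ANXA8L1, an annexin gene 240.6 kb from LINC02637, was at 3.97 against 1.87 FPKM (2.13-fold higher, 1.87 to 2.42), and LINC02637 at 0.58 against 0.44 FPKM. With both genes inside the rule, PIWIL4, a PIWI family gene 16.6 kb from LINC02700, was 1.62-fold higher in resistant cells (13.2 against 8.19 FPKM) where LINC02700 was lower (1.26 against 2.28 FPKM). For the 16 members that start head to head with a protein-coding gene, within 5 kb, the signs were equal in 10.

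**Figure D4:**
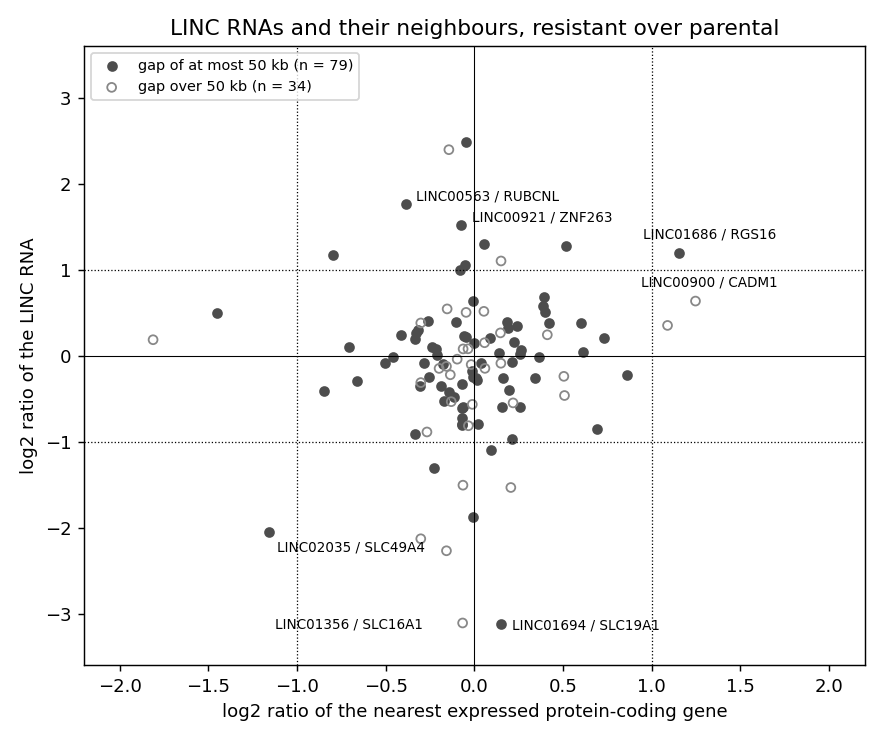
log2 ratio (resistant over parental) of each LINC RNA, vertical, against that of its nearest expressed protein-coding gene, horizontal, for 113 pairs. Filled points are pairs at most 50 kb apart, dotted lines mark 2-fold, and most points past 2-fold on the vertical axis lie near 0 on the horizontal one.

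The members also differed in gene structure, which the rule did not use. In GENCODE release 29 the longest transcript of a member had a median of 2054 bases and 3 exons, against 3635 bases and 8 exons for 11217 protein-coding genes at the same level, and 21 of the 113 had a single exon in that transcript. The members lay on 21 chromosomes, with 24 on chromosome 1, 10 on chromosome 2 and 9 on chromosome 21. On chromosome 1, 9 were above and 15 below a log2 ratio of 0. At the start of chromosome 11, where the 15 expressed protein-coding genes nearest to LINC01001 had a median log2 ratio of 0.34, LINC01001 itself was at 0.55 and 0.56 FPKM, with near-identical copies over 94.8% of its longest transcript. Near-identical copies elsewhere were found for 19 members, of which 1 was at least 2-fold higher and 2 lower. An overlap with another gene on the same strand was found for 22, of which 2 were higher and 2 lower.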

How the data were processed

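Poly(A) RNA of 1 parental and 1 cytarabine-resistant THP-1 culture was sequenced as read pairs from dUTP libraries, per the labels' protocols. Per the submitters' processing notes, the tools were StringTie 1.3.4d, HISAT2 2.0.4, edgeR, DESeq2 and cutadapt 1.9 and the build GRCh38; their roles are not stated. The authors' annotation, how strand was counted and how reads with several matches were treated are not given in the sources used here, so reads of a gene and its antisense partner may not be told apart. The deposited table gives FPKM with 2 decimals and whole-number counts, per the file headers. The resistant count column ends in a number of unstated meaning. It was taken to be the library of the FPKM column, because the log2 ratios from FPKM and from counts were offset by a median of -0.0038 with an SD of 0.0011 over 6782 genes.

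A fold is the resistant count over its library total, divided by the same for parental cells, and its exact 95% interval comes from Clopper-Pearson bounds on the resistant library's share of the gene's counts. A count of 0 was set to a floor of 3 counts. A gene was called by size alone, at 2-fold or more. The members, gene lists and settings were chosen with earlier results of these data known. Named members were the 12 highest and 12 lowest ratios with at least 50 counts, the 10 highest levels, members with 0 counts in a library, and the 5 nearest to equal at 2 FPKM or more. Genes of the noncoding lists are given as counts with examples. Copies were sought with blastn 2.17.0 at 97% identity over at least 200 bases of GENCODE release 29 transcripts. On counts simulated for 12986 genes at counting noise, 95.3% of the intervals held the true fold, 49 of 50 genes with a 3-fold increase and 33 of 50 with a 2-fold increase passed the rule, and 3 of 113 unchanged members did. The simulation held no spread between cultures, so it checks the calculation and does not give how many unchanged members would pass in real cultures. Alternatives covered pseudocount, level filter, count minimum, scaling (TMM from edgeR 4.0.16), size rule and chromosome 4. The software was pandas 2.3.3, scipy 1.17.1 and numpy 2.4.6 under Python 3.11.15; figures came from matplotlib 3.10.9.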

Additional observations from a re-analysis of the deposited data

How the results depend on the processing

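The counts of 10 higher and 10 lower members rest on low levels. With a pseudocount of 1 FPKM they were 0 and 1 (LINC01694), and with 0.1 FPKM they were 6 and 10. With a minimum of 1 FPKM, 55 members remained in the set, 2 higher and 3 lower, with a median log2 ratio of 0.0411 in place of -0.0737. Without a level filter they were 69 and 87 of 435. With at least 50 counts they were 6 and 9 of 104. With a size rule of 1.5-fold they were 14 higher and 23 lower. No rate over all genes was computed under these settings of pseudocount, level, count minimum and size. The shifts therefore cannot be called particular to the members. With the whole interval past 2-fold, 3 members were higher and 5 lower. Scaling by TMM or by the median ratio (both gave 11 higher and 10 lower), keeping the chromosome 4 genes, and leaving out members with copies or same-strand overlaps, an alternative chosen after the data were seen, kept both counts within 1.5 times and the median log2 ratio below 0. For members past 2-fold, no change of direction was possible under the pseudocounts or scalings. An equal pseudocount keeps the sign of a ratio, and the log2 shifts behind the scalings were -0.0212 (median ratio) and -0.0283 (TMM). Of the 38 members named by the rule, 23 fell outside their counting interval with a pseudocount of 1 FPKM, and 3 with 0.1 FPKM. No paired analysis was possible because each group has 1 library. Depth limits 9 members with under 50 counts, and the difference of LINC00685 was not detectable at this depth.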
